A study of Mus musculus with 4 samples.

Results

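The genes described here are 10 genes of phagocytes that have taken up lipid: Apoc1, Gpnmb, Lyz1, Lyz2, Spp1, Lpl, Cd63, Cd9, Igf1 and Cst7. They were chosen by their folds on these same arrays, so that their folds are a description and test nothing. Of the 10 genes, 8 were matched to a probe set that carries 1 gene symbol, out of 18194 genes measured in all. Together the 8 genes had 15 of the 45101 probe sets of the array. Spp1 and Cd63 were not matched to such a probe set and were not analysed here.

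RNA of mouse cerebrums was read on Affymetrix whole-genome mouse arrays in 4 pooled samples with 1 array each. The groups were 2aECKO (Mfsd2afl/fl with Tie2-cre, postnatal day 9), its control 2afl/fl (Mfsd2afl/fl without cre, postnatal day 9), 2aiECKO (Mfsd2afl/fl with Cdh5ERT2-cre, postnatal day 8, treated with 4-OHT) and its control 2afl/fl 4-OHT (Mfsd2afl/fl without cre, postnatal day 8, treated with 4-OHT). Mfsd2a carries lysophospholipids with polyunsaturated fatty acids across the blood-brain barrier, and all 4 groups carry its floxed allele. In 2aECKO it is deleted in endothelium from development on, and in 2aiECKO the deletion is induced after birth by 4-OHT, which is 4-hydroxytamoxifen. Tie2-cre is also known to act in blood-forming lineages, from which some phagocytes descend, whereas the Cdh5 promoter is chiefly endothelial. Each pool held hemi-cerebrums of 5 to 6 mice of both sexes, perfused with saline before dissection, so that neither the spread between mice nor any p-value can be had. For 2aiECKO the source name in the labels is that of 2aECKO, and the title and genotype were followed instead.

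Phagocytes of the brain are microglia, the macrophages of its borders and, in injury, cells from blood. When such cells engulf lipid-rich material such as dying cells or myelin, they break it down in lysosomes, store part of the cholesterol as esters in droplets and pass the rest to apolipoproteins, partly under control of the sterol-sensing LXR receptors. Microglia with high Spp1, Gpnmb, Lpl, Igf1 and Cst7 are known from the developing white matter of normal mouse pups in the first postnatal days, and similar cells are known from injured and aged brain. Several of these genes are also used by other cells: Lpl and Igf1 by neurons, Cd9 by glial precursors and myelinating cells, and Gpnmb by pigment cells. In bulk tissue, more cells of a type and more RNA per cell cannot be told apart.

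The deposited signals are on a linear scale, and each array was compared with its own control only. The median signal was 75.5 in 2aECKO and 74.1 in 2afl/fl, against 49.2 in 2aiECKO and 48.7 in 2afl/fl 4-OHT, so the pairs are on different scales. The single probe set of Mfsd2a, the targeted gene, had a signal of 410.2 in 2aECKO and 423 in 2afl/fl, and of 299 in 2aiECKO and 369 in 2afl/fl 4-OHT. Its log2 fold, the log2 of knockout over control signal, was -0.05 in 2aECKO and -0.30 in 2aiECKO, so the label of 2aECKO has little check in this probe set. A gene was called higher where the knockout signal reached 50 and lay at least 25% above the control, and lower where the control signal reached 50 and the knockout lay at least 20% below it. This rule made 1.6% of the 18194 genes higher and 1.26% lower in 2aECKO, and 1.248% higher and 0.396% lower in 2aiECKO. The 12426 genes whose signal averaged 50 or more over the arrays are termed the brighter genes.

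Of the 8 measured genes, 4 were higher in each model (2aECKO and 2aiECKO), and they were the same genes in both: Apoc1, Gpnmb, Lyz1 and Lyz2. No gene of the 8 was lower by the rule in either model. Of all 18194 genes, 0.379% were higher in both. The remaining members did not pass the rule: Cd9 stayed just short of it in both models, Lpl and Igf1 stood near their control signals, and Cst7 was dim on every array. The median log2 fold of the 8 genes was 0.32 in 2aECKO and 0.76 in 2aiECKO, against -0.01 and -0.00 over all genes. Log2 folds were above 0 in 5 of the 7 brighter members in 2aECKO and in 7 of 7 in 2aiECKO, and in 46.3% and 46.4% of all brighter genes. Since the genes were picked for these contrasts, nothing is read from these counts.

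**Figure D1:**
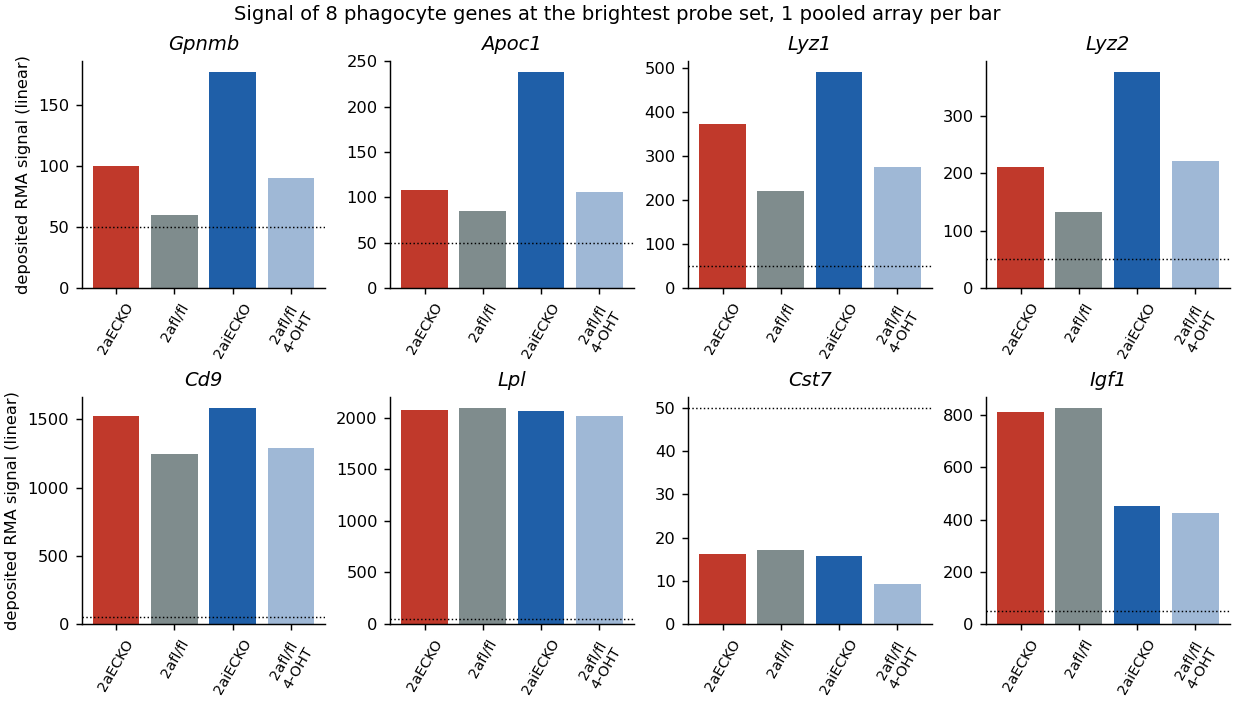
Deposited RMA signal on a linear axis (vertical, starting at 0) of 8 phagocyte genes at their brightest probe set; each bar is 1 pooled array, in the order 2aECKO, 2afl/fl, 2aiECKO and 2afl/fl 4-OHT, there are no error bars because each group has 1 array, and the dotted line marks a signal of 50. Gpnmb, Apoc1, Lyz1, Lyz2 and Cd9 stand higher in each knockout than in its own control, whereas all 4 Cst7 bars lie below 50.

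Gpnmb encodes a glycoprotein of lysosomes and the cell surface that macrophages make under lysosomal stress. Its brightest probe set had a signal of 99.9 in 2aECKO and 60.1 in 2afl/fl, a log2 fold of 0.73. In the induced model it had 177 in 2aiECKO and 90.4 in 2afl/fl 4-OHT, a log2 fold of 0.97. Among the brighter genes these folds ranked 13 from the top in 2aECKO and 2 from the top in 2aiECKO. The other probe set of Gpnmb did not exceed a signal of 10.7, and its log2 folds were -0.07 in 2aECKO and 0.00 in 2aiECKO. At such a signal the array reads mostly background, so the Gpnmb values rest on 1 probe set. With its probe sets averaged, Gpnmb lay below a signal of 50 on each knockout array and was called in neither model.

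Apoc1 encodes a small apolipoprotein of lipoprotein particles, a known LXR target of mouse macrophages that lies beside Apoe. Its single probe set had a signal of 108 in 2aECKO and 85.0 in 2afl/fl, a fold of 1.27 that lies just past the rule. In the induced model the signal was 238 in 2aiECKO and 106 in 2afl/fl 4-OHT, a fold of 2.25. That was the highest fold of all 12426 brighter genes, at a log2 fold of 1.17, while the log2 fold of 0.34 in 2aECKO ranked 230. With 50 added to each signal the log2 fold in 2aECKO was 0.22, short of the rule. The log2 fold of Apoc1 was larger in 2aiECKO by 0.83, a difference that no replicate checks. Of the neighbouring apolipoprotein genes, Apoe, the main lipid carrier made by glia, had 0.28 as log2 fold in 2aECKO and 0.32 in 2aiECKO, just short of the rule in both. Apoc2, which activates lipoprotein lipase, did not exceed a signal of 18.5. Apoc4 had log2 folds of -0.07 and 0.02.

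Lyz1 and Lyz2 are neighbouring genes of mouse lysozyme, the enzyme that cuts bacterial cell walls; Lyz2 is the form of macrophages and neutrophils and Lyz1 that of the Paneth cells of the gut. Because the copies are near-identical, probe sets of one can read RNA of the other. How alike the pair is shows even upstream of the genes, in the RefSeq promoter windows of GRCm38.p6. The 150 bases before each start site, both on the minus strand, are printed with the bases that differ between the copies in capitals. Lyz1 lies at chr10:117292869-117293018 and Lyz2 at chr10:117282273-117282422.
Lyz1: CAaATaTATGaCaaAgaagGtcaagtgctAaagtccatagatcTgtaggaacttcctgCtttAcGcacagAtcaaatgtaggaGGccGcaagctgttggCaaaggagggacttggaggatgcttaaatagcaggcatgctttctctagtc
Lyz2: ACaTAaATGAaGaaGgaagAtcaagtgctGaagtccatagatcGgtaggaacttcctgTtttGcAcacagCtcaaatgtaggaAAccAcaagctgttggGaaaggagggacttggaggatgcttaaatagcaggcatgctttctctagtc
Compared base by base without gaps, 129 of these 150 bases were identical, and the last 50 before the start sites were identical throughout.

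Lyz2 had 1 probe set, with a signal of 211 in 2aECKO and 133 in 2afl/fl, a log2 fold of 0.66. In the induced model it had 377 in 2aiECKO and 222 in 2afl/fl 4-OHT, a log2 fold of 0.77. The brightest Lyz1 probe set had 372 in 2aECKO and 221 in 2afl/fl, a log2 fold of 0.75, and 492 in 2aiECKO and 275 in 2afl/fl 4-OHT, a log2 fold of 0.84. That probe set and the next, whose log2 folds were 0.41 in 2aECKO and 0.77 in 2aiECKO, are of the design that Affymetrix marks as open to cross-hybridization. The third Lyz1 probe set, which is not, reached a signal of only 14.2 and had log2 folds of 0.15 and 0.06. The Lyz1 and Lyz2 values therefore cannot be taken as independent of each other. Without the probe sets open to cross-hybridization Lyz1 was called in neither model, and with Lyz1 left out 3 of 7 genes were higher in each.

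**Figure D2:**
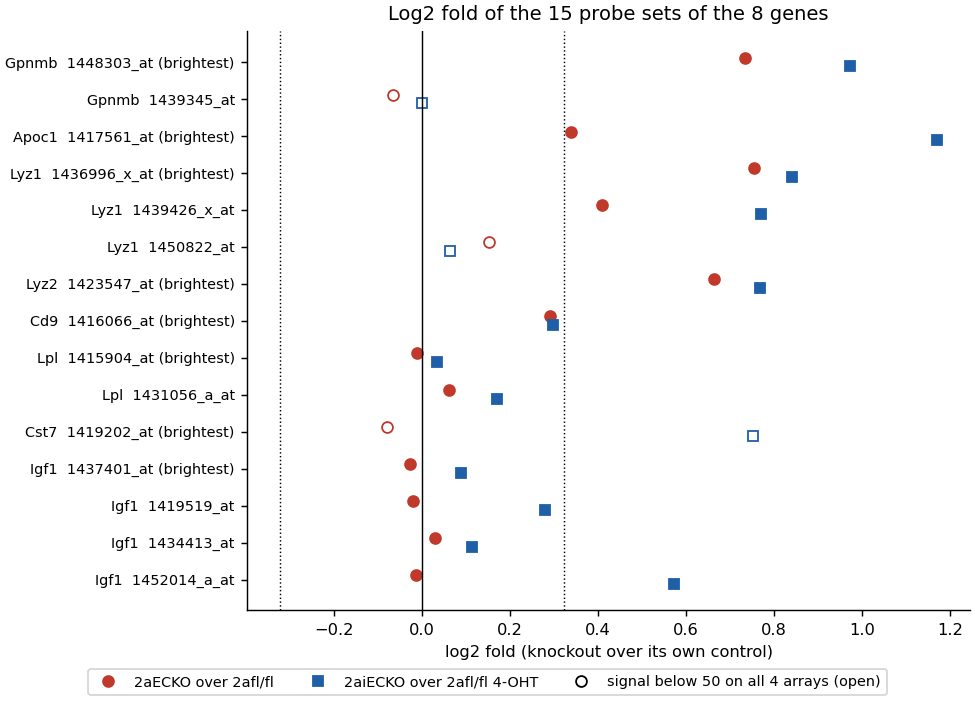
Log2 fold (horizontal axis) of all 15 probe sets of the 8 genes (vertical axis), as circles for 2aECKO over 2afl/fl and squares for 2aiECKO over 2afl/fl 4-OHT; open symbols have a signal below 50 on all 4 arrays and the dotted lines mark the fold of the rule in either direction. The Gpnmb, Apoc1, Lyz2 and bright Lyz1 probe sets lie to the right of the dotted line in both models, and the dim probe sets of Gpnmb and Lyz1 lie near 0.

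Cst7 encodes cystatin F, an inhibitor of cathepsins in the lysosomes of immune cells. Its signal was 16.1 in 2aECKO and 17.1 in 2afl/fl, and 15.8 in 2aiECKO and 9.37 in 2afl/fl 4-OHT. Its log2 folds were -0.08 for 2aECKO and 0.75 for 2aiECKO. After quantile normalization over all 4 arrays, which puts them on 1 scale, Cst7 was at 13.3 in 2aECKO and 13.9 in 2afl/fl, and at 21.6 in 2aiECKO and 11.7 in 2afl/fl 4-OHT, so that 2aiECKO was the highest. With 50 added to each signal before the logarithm, the log2 fold in 2aiECKO was 0.15. All 4 signals are below 50, so the Cst7 fold is not read further.

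The promoter windows of Cst7 and of the lysozyme pair share a short purine-rich run, AGGAAGT, of the kind bound by the macrophage factor PU.1 and other ETS factors. It is in capitals in the Cst7 stretch on the plus strand at chr2:150570325-150570384, and it stands in reverse complement as acttcct in both lysozyme sequences above.
Cst7: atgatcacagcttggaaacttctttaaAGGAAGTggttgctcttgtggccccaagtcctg
Searched on both strands over windows of 300 bases, AGGAAGT was present for 4 of the 8 genes of the list with an entry, namely Cst7, Lyz1, Lyz2 and Spp1, and in 9.35% of all 32851 windows. The lysozyme windows are copies of one another and count as 1 case. TGACTCA, an AP-1 motif, was found in the Gpnmb window alone and in 5.2% of all windows, and CACATG in the Cd9 window and in 14.2%. CACGTG, the core of the site of lysosomal TFEB and MITF factors, was found in none of the 8 genes' windows and in 7.15% of all windows. These motifs, which do not overlap one another in the windows, were chosen after the sequences were read, and a match is a description and not a binding site. Apoc1 and Lpl had no entry.

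Cd9 encodes a tetraspanin, a membrane protein that organizes adhesion and signalling complexes. It had a signal of 1529 in 2aECKO and 1249 in 2afl/fl, and of 1584 in 2aiECKO and 1288 in 2afl/fl 4-OHT. The folds were 1.22 and 1.23, so Cd9 lay just outside the rule in both models, at log2 folds that differed by 0.01. Its log2 folds lay at percentiles 97.25 and 97.79 of the brighter genes. Of 19 other tetraspanin genes, 1 was higher in each model and 0 were lower. In 2aECKO it was Tspan18, at a log2 fold of 0.38, and in 2aiECKO Cd53, a tetraspanin of leukocytes, at 0.56. Cd82 had log2 folds of 0.28 and 0.22.

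Lpl encodes lipoprotein lipase, which frees fatty acids from triglycerides in lipoproteins. Its brightest probe set had a signal of 2077 in 2aECKO and 2092 in 2afl/fl, and of 2060 in 2aiECKO and 2011 in 2afl/fl 4-OHT. The log2 folds were -0.01 and 0.03, and those of its other probe set 0.06 and 0.17. Of 14 measured partners of the enzyme, such as its endothelial anchor, its inhibitors and lipoprotein receptors, 0 were higher and 0 lower in either model. The receptor gene Lrp1 had log2 folds of 0.19 and 0.06, the apolipoprotein E receptor gene Lrp8 of -0.04 and -0.15, and the protease gene Furin of -0.17 and -0.14.

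Igf1 encodes insulin-like growth factor 1, a growth signal for neurons and myelinating cells that some microglia of the newborn brain secrete. Its brightest probe set had a signal of 812 in 2aECKO and 828 in 2afl/fl, and of 451 in 2aiECKO and 424 in 2afl/fl 4-OHT. The log2 folds of its 4 probe sets in 2aECKO lay between -0.03 and 0.03. In 2aiECKO they lay between 0.09 and 0.57, so the size there depends on the probe set. The highest came from a probe set with a signal of 102 in 2aiECKO and 68.8 in 2afl/fl 4-OHT, which by itself would pass the rule. Of 17 other genes of the IGF system, Igf2 was higher in 2aECKO, at a log2 fold of 0.48, and Igfbp6, an IGF-binding protein, was lower in 2aiECKO, at -0.52. Igfbp5 had log2 folds of 0.29 and 0.18.

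**Figure D3:**
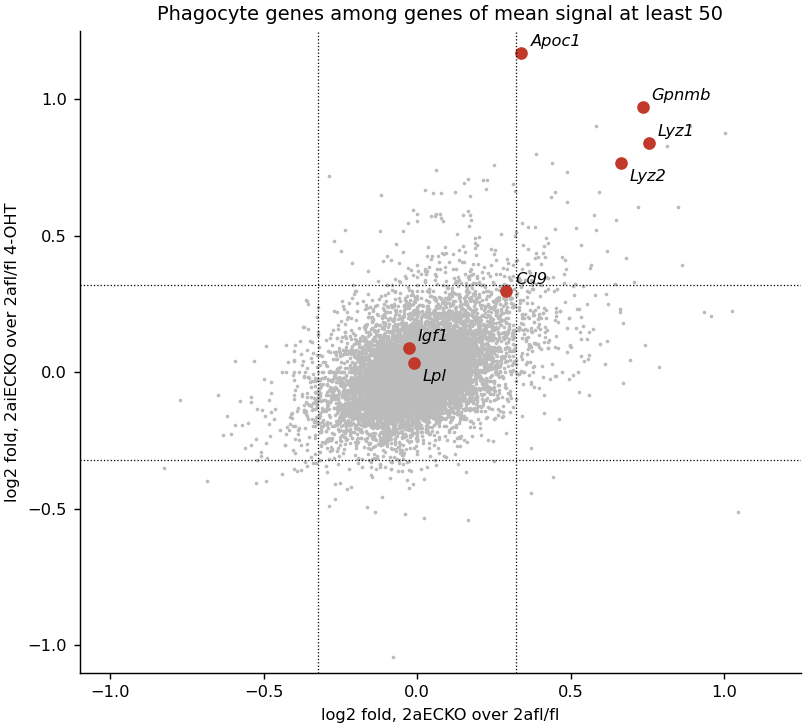
Each point is a gene, placed by its log2 fold of 2aECKO over 2afl/fl along the horizontal axis and of 2aiECKO over 2afl/fl 4-OHT along the vertical axis, for the 12426 brighter genes (grey, 1 of them outside the axes) and of the 7 phagocyte genes among them (red); dotted lines mark the fold of the rule. Apoc1, Gpnmb, Lyz1 and Lyz2 lie at the upper right edge, Cd9 lies just inside both lines, and Lpl and Igf1 lie near 0.

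Nearness of a gene to a higher member was taken as the straight-line distance between their pairs of log2 folds over the 2 comparisons. These are the folds by which the members were chosen, so nearness is a description and tests nothing. Nearest to Lyz1, at a distance of 0.06, was Abca1, which exports cholesterol from the cell and is a known LXR target. Lyz2 and Gpnmb followed, at 0.12 and 0.13. For Gpnmb they were Lyz1, Abca1 and Fam107a, at 0.13 to 0.17, and for Lyz2 they were Lyz1, the lipogenic gene Thrsp and Fam107a, at 0.12 to 0.16. Apoc1 had no near neighbour. Closest to it were Fam107a, the macrophage gene Mpeg1 and Osr1, at 0.36 to 0.41.

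The higher genes also differed between the controls. In the deposited values the log2 difference of 2afl/fl 4-OHT over 2afl/fl was 0.59 for Gpnmb, below both its knockout folds. For Lyz2 it was 0.73, between its 2 knockout folds. Only after quantile normalization over all 4 arrays did it exceed both knockout folds for these 2 genes. To set all 4 arrays on 1 scale, signals were quantile-normalized across them, after which the median log2 difference of 2afl/fl 4-OHT over 2afl/fl was 0.06 with a robust SD over genes of 0.24. Gpnmb was then at 205 in 2aiECKO, 109 in 2afl/fl 4-OHT, 83.5 in 2aECKO and 49.5 in 2afl/fl. Lyz2 was at 425, 254, 185 and 115, and Apoc1 at 273, 128, 90.5 and 71.5, in the same order of groups. So for Gpnmb, Lyz2 and Apoc1 the day 8 control stood above the day 9 knockout.

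The log2 difference of 2afl/fl 4-OHT over 2afl/fl was 1.14 for Gpnmb, 1.15 for Lyz2, 0.84 for Apoc1 and 0.68 for Lyz1, at percentiles 99.89, 99.9, 99.65 and 99.03 of the brighter genes. For Cd9 it was 0.34 and for Lpl 0.24. Igf1 went the other way, with a log2 difference of -0.66 at percentile 1.21. The full order 2aiECKO, 2afl/fl 4-OHT, 2aECKO, 2afl/fl held for 4 of the 7 brighter members, and for 12.4% of all brighter genes. Because the members were chosen by their folds over their own controls, that order is partly built in, and nothing is read from its count. Lyz1 departed from it, at 552 in 2aiECKO, 333 in 2aECKO, 312 in 2afl/fl 4-OHT and 194 in 2afl/fl. The controls differ in age, in 4-OHT and in the scale of their deposited values, which cannot be told apart. They also differ in lens crystallin genes, described below, whose brighter members had a median log2 difference of 0.91 in the same normalization. The part of this in the members' control differences was not tested.

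**Figure D4:**
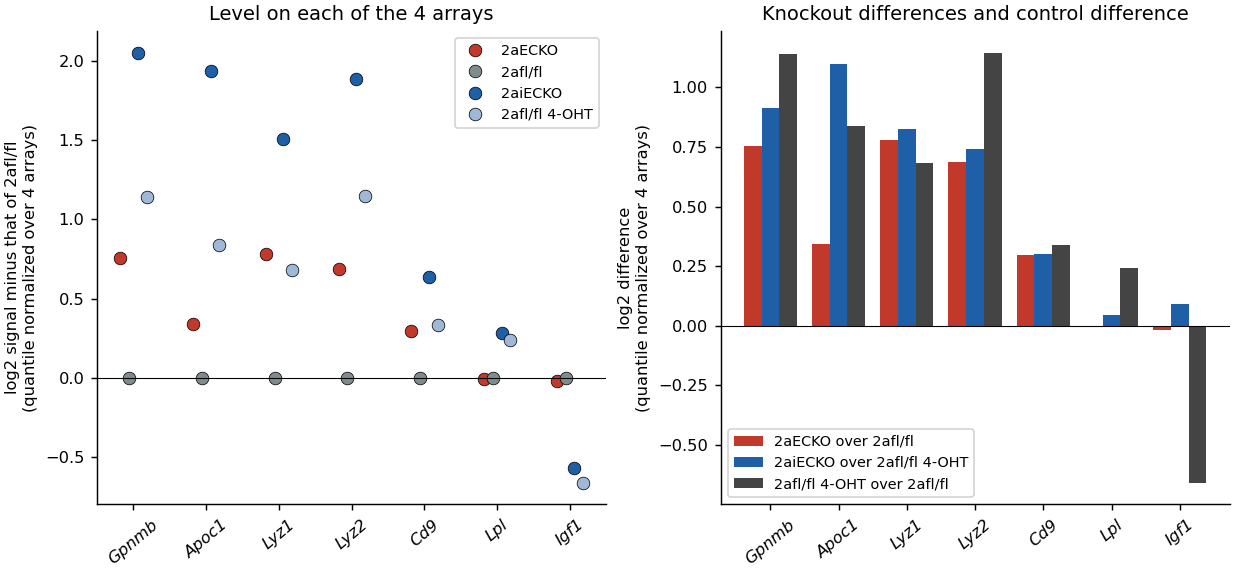
Left, log2 signal of 7 phagocyte genes minus that of 2afl/fl, after quantile normalization over all 4 arrays, with 1 point for each pooled array; right, the log2 differences of 2aECKO over 2afl/fl, 2aiECKO over 2afl/fl 4-OHT and 2afl/fl 4-OHT over 2afl/fl, as bars from 0. The control difference of Gpnmb, 1.14, and of Lyz2, 1.15, exceeds both knockout differences, and that of Igf1 is -0.66.

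Markers of the cells that carry these genes are set beside them as a description only, since the members were chosen by their folds. Of 17 measured genes of resting microglia, 0 were higher and 4 were lower in 2aECKO, with a median log2 fold of -0.11. The lower genes were Tmem119 at -0.46, the fructose transporter gene Slc2a5 at -0.37, the purinergic receptor gene P2ry12 at -0.36 and the selectin ligand gene Selplg at -0.33, and 0 of these stayed lower at a fold of 1.5. In 2aiECKO 7 were higher and 0 lower, with a median of 0.27, among them Gpr34 at 0.65 and Trem2, a lipid receptor of microglia, at 0.56. Tmem119 had a log2 fold of -0.14 there. The summed signal of the list was 6850 in 2aECKO and 7158 in 2afl/fl, and 6158 in 2aiECKO and 5294 in 2afl/fl 4-OHT. The brightest gene in it was Rhob, at 2779, 2942, 1820 and 1905 in the same order of groups, so the sum leans on 1 gene. The part of this list in the members' folds was not tested.

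Genes shared by macrophages and microglia were mostly higher in 2aiECKO, by less than Gpnmb or Apoc1. Of 23 measured genes 17 were higher and 0 lower there, with a median log2 fold of 0.58. Mpeg1, a pore-forming protein of macrophages, had 0.80, Tyrobp, the signalling partner of Trem2, 0.76, Fcgr1, an antibody receptor, 0.74, and the complement genes C1qa, C1qb and C1qc 0.69, 0.67 and 0.66. In 2aECKO 1 was higher, Mpeg1 at 0.39, and 1 was lower, Coro1a at -0.33, with a median of 0.12. In 2aECKO the lysozyme and Gpnmb log2 folds, 0.66 to 0.75, exceeded the highest of this list, and that of Apoc1, 0.34, did not. Because the members were chosen by their folds, setting them beside this list is a description only. The summed signal was 7241 in 2aECKO and 6845 in 2afl/fl, against 9148 in 2aiECKO and 6511 in 2afl/fl 4-OHT.

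Other genes of lipid-associated or disease-associated microglia were higher in part. Of 28 measured, 2 passed as higher in 2aECKO and 9 in 2aiECKO, with 0 lower in either and medians of 0.16 and 0.21. Trem2 and Tyrobp, both higher in 2aiECKO, were counted in the lists above as well. Lgals3, a galectin of phagocytes with damaged lysosomes, was higher in both, at log2 folds of 0.52 and 0.53, and so was the chemokine gene Ccl6, at 0.45 and 0.66. The lectin receptor gene Clec7a had 0.71 and Cd52 0.72 in 2aiECKO, against 0.23 and -0.29 in 2aECKO. The signal of the integrin gene Itgax, used to mark such cells, was below 50 on all 4 arrays, and that of Mmp12 was at most 9.5.

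Lysosomal genes of phagocytes were higher in 2aiECKO in 7 of 24 cases, with 0 lower and a median of 0.25, and in 2aECKO in 1 case, with a median of 0.10. Cd68, a lysosomal membrane protein of macrophages, had 0.05 in 2aECKO and 0.66 in 2aiECKO as log2 folds, Ctss, a cathepsin of macrophages, 0.08 and 0.56, and Ctsz 0.35 and 0.47, the last being higher in both. Of 24 measured foam cell genes of lipid handling, 2 passed as higher in 2aECKO and 3 in 2aiECKO, with medians of 0.19 and 0.04. The sterol exporter genes Abca1, at 0.81 and 0.83, and Abcg1, at 0.34 and 0.34, were higher in both, and Plin2, which coats lipid droplets, was higher in 2aiECKO at 0.33 with 0.19 in 2aECKO. The scavenger receptor gene Cd36 was below 50 on every array. Among 17 other apolipoprotein genes, Apod was higher in both, at 0.68 and 0.42, and Clu in 2aECKO, at 0.38 with 0.23 in 2aiECKO.

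**Figure D5:**
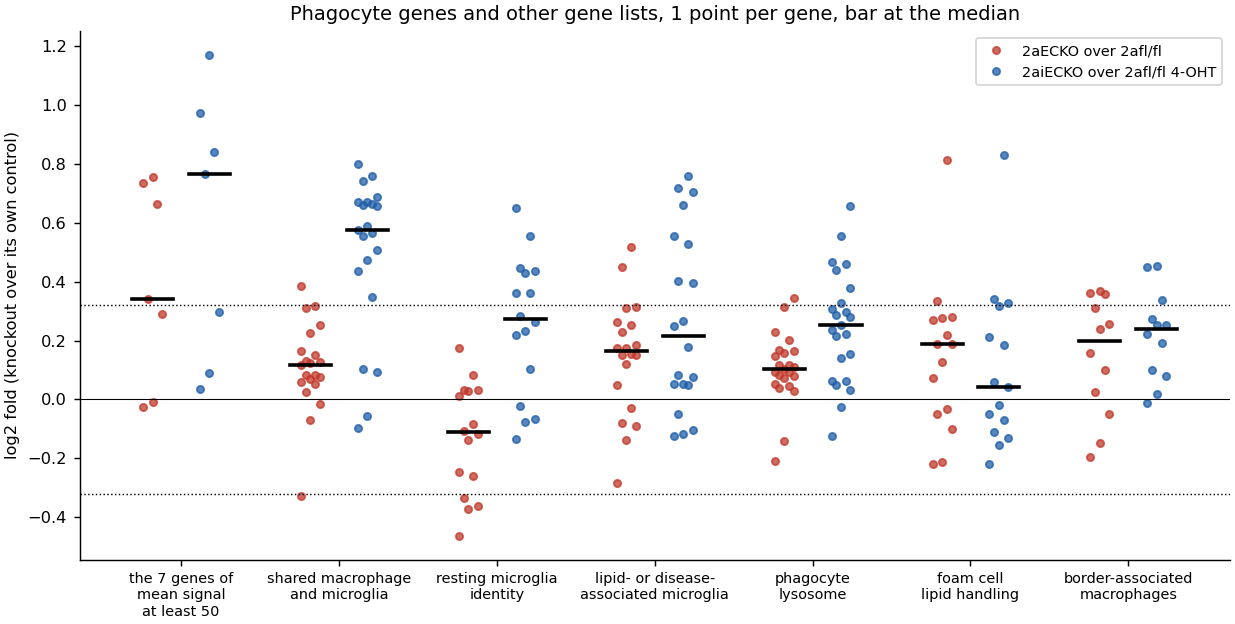
Log2 fold (vertical axis) of brighter genes, as 1 point per gene with a bar at the median, for 7 of the phagocyte genes and 6 other gene lists (horizontal axis), in 2aECKO over 2afl/fl (left of each pair) and 2aiECKO over 2afl/fl 4-OHT (right); dotted lines mark the fold of the rule. The median of the resting microglia list is -0.11 in 2aECKO and 0.27 in 2aiECKO, and that of the shared macrophage list is 0.12 and 0.58.

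Receptors and proteases of Spp1 and Gpnmb had medians of 0.06 and 0.07, with 1 higher and 1 lower of 16 in 2aECKO and 1 higher and 0 lower in 2aiECKO. Sdc4, a syndecan bound by Gpnmb, was higher in 2aiECKO, at a log2 fold of 0.50 with 0.32 in 2aECKO. The integrin gene Itgb5 was higher in 2aECKO, at 0.33 with 0.16 in 2aiECKO, and Itgb3 was lower in 2aECKO, at -0.33 with -0.30 in 2aiECKO. Of 12 other cystatin genes and lysozyme relatives 0 were higher and 0 lower in either model. Cst3, the abundant cystatin of brain, had 0.11 and 0.25, Cstb -0.02 and 0.12, and Cst6 -0.16 and -0.09.

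Of the other cells that use these genes, border-associated macrophages had 3 of 15 markers higher in each model and 0 lower, with medians of 0.20 in 2aECKO and 0.24 in 2aiECKO. The mannose receptor gene Mrc1 was higher in both, at 0.36 and 0.45, Cbr2 in 2aECKO, at 0.37, with 0.10 in 2aiECKO, and Stab1 in 2aiECKO, at 0.45, with 0.25 in 2aECKO. Markers of monocytes and neutrophils, which also carry Lyz2, had 0 of 13 higher in either model, and 9 of the 13 were below 50 on all 4 arrays. With no minimum signal 2 of the 13 passed in 2aECKO and 1 in 2aiECKO, counts without a share over all genes beside them. Among the dim genes, named after their values were seen, were those of the neutrophil proteins S100a8, at 29.8 in 2aECKO and 19.1 in 2afl/fl, a log2 fold of 0.64, and S100a9, at 39.0 and 29.8, a log2 fold of 0.39. In 2aiECKO their log2 folds were -0.20 and 0.00. The summed signal of all 13 markers was 1085 in 2aECKO and 971 in 2afl/fl, and 848 in 2aiECKO and 834 in 2afl/fl 4-OHT. Most of it came from Vcan, at 655, 531, 574 and 556 in the same order of groups. Vcan, which other brain cells also use, had log2 folds of 0.30 and 0.04, Ltf, a granule protein, -0.13 and -0.07, and the integrin gene Itgal -0.39, which was lower by the rule, and 0.00.

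For Gpnmb, pigment cells and lens were checked because 11 of 15 lens genes, namely crystallins with Mip and Bfsp1, were lower in 2aiECKO. All that were lower were crystallins, with Cryaa at a log2 fold of -2.45, Crygf at -1.04 and Crybb3 at -0.51. In 2aECKO 1 of the 15 was lower, Cryaa at -0.32, and Crygf and Crybb3 had -0.08 and -0.14. The array that stood apart was that of 2afl/fl 4-OHT, to which every 2aiECKO fold refers. Cryaa was at 26.8 in 2aiECKO and 147 in 2afl/fl 4-OHT, against 48.7 in 2aECKO and 61.0 in 2afl/fl. Cryba1, named after its values were seen, was at 13.6 in 2aiECKO and 149 in 2afl/fl 4-OHT, against 19.6 in 2aECKO and 16.6 in 2afl/fl. The part of this in the members' folds was not tested. Markers of pigment cells and of the retinal pigment epithelium had 0 of 14 higher in either model, and 7 were below 50 on all 4 arrays. With no minimum signal 3 of the 14 passed in 2aiECKO, a count without a share over all genes beside it. Among them was the pigment enzyme gene Dct, named after its values were seen, at 48.8 in 2aiECKO and 31.7 in 2afl/fl 4-OHT, a log2 fold of 0.62. The summed signal of all 14 markers was 1070 in 2aECKO and 1074 in 2afl/fl, and 857 in 2aiECKO and 775 in 2afl/fl 4-OHT. The pigment cell factor gene Mitf had log2 folds of -0.06 and 0.14, Rlbp1, also used by glia, 0.12 and 0.20, and Oca2 -0.44, which was lower by the rule, and 0.00.

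Markers of other brain cells differed too, and their part in the members' folds was not tested. Of 14 astrocyte markers 3 were higher in 2aECKO and 4 in 2aiECKO, with medians of 0.23 and 0.26; Gfap, at 0.89 and 0.90, and the connexin gene Gjb6, at 0.32 and 0.41, were higher in both. Of 14 markers of myelin and mature oligodendrocytes, which use Cd9, 1 was lower in 2aECKO, Mobp at -0.34 with 0.07 in 2aiECKO, and 1 was higher in 2aiECKO, Mbp at 0.42 with 0.04 in 2aECKO. Cldn11 had -0.08 and 0.30. The medians were -0.00 and 0.19. Neuronal markers had 2 of 14 lower in 2aECKO, Slc17a7 at -0.39 and Camk2a at -0.36, and 0 in 2aiECKO, where these had -0.21 and -0.17. Nefm had -0.31 and -0.10, and the medians were -0.06 and -0.03. Endothelial markers had medians of 0.04 and -0.13, with 1 of 13 lower in 2aiECKO, Vwf at -0.53 with 0.02 in 2aECKO. Emcn had 0.28 and 0.06 and Slco1a4 0.26 and 0.21. Of 7 red cell genes 2 were higher in 2aECKO, and 0 of them in 2aiECKO: Alas2 had 1.05 and -0.51, Hbb-b2, named after its value was seen, had 0.32 in 2aECKO, and Hba-a2 had 0.01 and -0.19.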

How the data were processed

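Total RNA of hemi-cerebrums was pooled per group and read on 1 array per group. The authors deposited background-adjusted, quantile-normalized RMA intensity values on a linear scale; the methods text gives R with affy, and the submitters' processing notes name Partek 6.6. Log2 of these values was taken here. Of 45101 probe sets, 34958 carry 1 symbol in the platform annotation, 932 several and 9211 none in it; symbols were updated through RefSeq gene identifiers. A gene was represented by its probe set of highest mean log2 signal over the 4 arrays. RMA pulls the folds of dim probe sets toward 0, and precision is limited by there being 1 array per group.

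The 10 genes and the 20 gene lists, of 341 genes with 315 measured, were chosen with earlier results of these data known; a listed gene that is a member was left out of its list. Medians of lists are over the brighter genes, and counts over all measured genes. The lists overlap: some genes, among them Trem2, Tyrobp, Cd68 and Ctss, stand in more than 1 list and are counted in each. Named genes were the members, Mfsd2a, the 3 brighter genes of each list with the largest fold in either model, list genes called in both models, and the 3 genes nearest each higher member; others were named after their values were seen. With 1 array per group there was no test and no p-value. Alternatives were other probe set choices, loess trend removal (fraction 0.3), median centring, quantile normalization over all 4 arrays alone or with the other control or the mean of both, an offset of 50, 100 or nothing as the signal minimum, 1.5 as the fold, and leaving out Lyz1. Python 3.11.15, numpy 2.4.6, pandas 2.3.3, statsmodels 0.14.6 and matplotlib 3.10.9 were used.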

Additional observations from a re-analysis of the deposited data

Results flagged for a closer look

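For 3 of the 8 genes the log2 folds of the models had opposite signs, a difference that was not tested, since each group is 1 pooled array. Cst7 had -0.08 in 2aECKO and 0.75 in 2aiECKO, at signals below 50 on all 4 arrays. Igf1 had -0.0275 and 0.0898 at its brightest probe set. Lpl had -0.0103 in 2aECKO and 0.0347 in 2aiECKO, both far below the robust SD of single-gene log2 folds, which was 0.12 in 2aECKO and 0.10 in 2aiECKO.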

How the results depend on the processing

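With loess trend removal, median centring and quantile normalization over all 4 arrays, 4 of the 8 genes were higher in each model, and the median log2 fold lay between 0.319 and 0.327 in 2aECKO and between 0.765 and 0.783 in 2aiECKO. Averaging all probe sets of a gene, 3 genes were higher in each model, Gpnmb being lost, and the median in 2aiECKO was 0.522. Without probe sets of less specific design 3 were higher in each, Lyz1 being lost, and that median was 0.526. With an offset of 50 before log2, 3 were higher in 2aECKO, Apoc1 being lost, and the median there was 0.252. For 2aiECKO the offset left 4 genes higher and brought the median to 0.471. At a minimum signal of 100, 3 were higher in 2aECKO, Gpnmb at 99.9 being lost. With quantile normalization over 4 arrays and the control of the other model, the 1 gene higher in 2aECKO was Igf1, at 0.639, and none of the 4 genes called otherwise; Lyz1 was at 0.0953. The medians were -0.142 in 2aECKO and 1.07 in 2aiECKO, and Apoc1, Lyz2 and Gpnmb reversed in 2aECKO, to -0.496, -0.459 and -0.384. With the mean of both controls the 1 gene higher in 2aECKO was Lyz1, at 0.438, the medians were 0.121 and 0.962, and Apoc1 reversed in 2aECKO to -0.0774. Igf1 in 2aiECKO, not called, was at -0.566 with the other control and -0.237 with the mean of both. By construction these settings bring the control difference, whole or in part, into each fold. At a fold of 1.5 the rule took 3 members in 2aECKO, without Apoc1, and 4 in 2aiECKO. In 2aiECKO 10 of 23 shared macrophage genes, 5 of 28 genes of lipid-associated microglia, 1 of 24 lysosomal genes and 1 of 17 resting microglia genes stayed higher. Of the resting microglia genes 0 of 17 were lower in 2aECKO, and 0 of 15 border macrophage genes were higher in either model. The share of all genes passing is given for the first rule only, so nothing is read from counts under the alternatives. Of 128 values of single members under the alternatives that recompute the folds, 83 stayed within the robust SD, 41 moved beyond it and 4 reversed. Reversed means a change of sign where the log2 fold was at least 0.32 in size before. Smaller folds that changed sign are counted among the 83 and 41. Cd9 in 2aECKO is 1 such case, at -0.0402 with quantile normalization and the other control. The median log2 fold kept its sign under the alternatives that leave each knockout its own control, for each list of the report except myelin in 2aECKO, the IGF system in 2aiECKO, and other tetraspanins and cystatins in 2aECKO. Signals below 50 limit Cst7 and 1 probe set each of Gpnmb and Lyz1. No paired analysis was possible because each group has 1 array.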
